A study of Sus scrofa with 4 samples.

Results

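Interferon-stimulated genes are the genes that cells switch on when interferon reaches them, and 39 of them were followed here in pig (Sus scrofa) ovary. They were chosen by name, as the rows of the deposited expression table whose symbol equalled a listed symbol. Of the 39, 34 matched a row among 22309 genes in the table. A further 3, IFI6, GBP1 and DDX58 (RIG-I, now RIGI), had rows without a symbol that a reference table of gene names identified by their Ensembl identifiers, and they are described apart and counted in no total below. XAF1 and IFIT3 matched no row and were not analysed here. Poly(A)-enriched RNA was sequenced from 2 ovary samples labelled leptin overexpression and 2 labelled WT, all taken in diestrus, the luteal part of the oestrous cycle. The leptin overexpression animals were F2 offspring that descended from male re-clones of 1 transgenic pig, mated to Duroc/Landrace/Yorkshire sows, so the transgene traces to 1 cloned line. The promoter of the transgene, the ages of the sows and the breeding of the WT animals were not given in the sources used here. Nothing in the labels ties the 2 samples of a group to different sows, and the p-values therefore describe variation between samples that may be technical.

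Interferons are secreted when a cell senses viral RNA or DNA, and they act on neighbouring cells through surface receptors and JAK kinases. For type I interferon these kinases are JAK1 and TYK2. Type I interferon brings STAT2 and IRF9 into the complex ISGF3, which activates antiviral genes such as MX1, ISG15, OAS2 and RSAD2, while type II interferon raises IRF1 and the guanylate-binding proteins. In ruminants, interferon from the early embryo reaches the corpus luteum and raises these genes there, and resident and infiltrating leukocytes are another place where they are active. JAK and STAT proteins also serve other cytokines, and leptin signals mainly through JAK2 and STAT3.

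Total counts were 16493113 to 16797511 per library. TMM factors, which scale each library so that most genes keep the same level, were 0.925 and 0.809 in leptin overexpression and 1.34 and 0.998 in WT. WT replicate 1 stood apart in this factor. Levels below are given as TMM-scaled CPM, the count of a gene relative to its library total after multiplication by this factor. The authors' FPKM, per transcript length, are given beside them for some genes only, and in counts over the tested members. The share of counts from mitochondrially encoded genes was 15.1% and 16.4% in leptin overexpression and 6.89% and 12.9% in WT, and its part in the results was not tested. Leptin itself, LEP (ENSSSCG00000040464), had 55 and 124 counts in leptin overexpression and 0 and 3 in WT. Among the steroidogenic genes of luteal and follicular tissue, STAR was at 16546 and 23771 CPM in leptin overexpression, against 7022 and 15164 CPM in WT. CYP19A1, the aromatase of follicular cells, was at 197 and 161 CPM in leptin overexpression, against 9.21 and 197 CPM in WT, and CYP17A1, which makes androgens, at 836 and 337 CPM in leptin overexpression, against 157 and 1700.5 CPM in WT. WT replicate 1 was the lowest library for each of these 3 genes, and its part in the results was not tested. Values of a group are given in the order replicate 1, replicate 2 throughout.

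The comparison of leptin overexpression with WT asks whether interferon-stimulated transcripts differed in the ovaries of these sows. Of the 34 matched genes, 32 passed the filter on low counts and were tested with edgeR's quasi-likelihood test, and 30 of the 32 had lower values in leptin overexpression, where 50.7% of all 13937 genes tested had lower values. Their median log2 fold change was -0.93, against -0.01 over all genes tested, and IFIT5 and EIF2AK2 were the 2 with higher values. In 20 of the 32, both leptin overexpression libraries lay under both WT libraries, as did 22.9% of all genes tested, and in 0 they lay above both, as did 22.2%. None of the 32 passed the threshold of 0.05 on p-values adjusted over all genes by the Benjamini-Hochberg method. Of all genes tested, 0.0287% were called higher and 0.0% lower by that test. At an unadjusted edgeR p under 0.05, 12 of the 32 were lower and 0 higher, against 5.32% and 4.04% of all genes. DESeq2 called 1 lower, MX2, where 1.2% of all its genes were called lower, and limma-voom called 0, with 0.0% over all its genes. Without the filter on low counts, edgeR called 2 of 34 lower, MX2 and MX1, against 0.939% of all genes. Because these are ovary samples of mixed cell types, fewer cells of a type and less RNA per cell cannot be told apart.

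**Figure D1:**
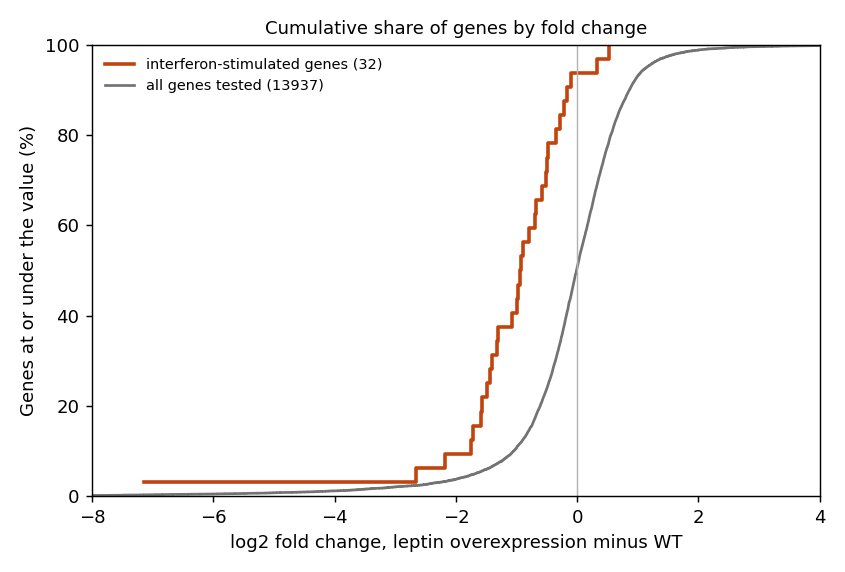
Cumulative share of genes (percent, vertical axis) at or under each log2 fold change (horizontal axis), for the 32 tested interferon-stimulated genes and all 13937 genes tested. The curve of the interferon-stimulated genes lies to the left, with medians of -0.93 and -0.01, and its first step is ISG20, whose fitted value rests on 0 counts in both leptin overexpression libraries.

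Levels differed within WT as well as between the groups. WT replicate 2 exceeded WT replicate 1 in 31 of the 32 genes, as it did in 48.8% of all genes tested, with a median ratio of 1.79 against 0.987 over all genes. In 21 of the 32 it was at least 1.5 times as high, against 20.4% of all genes, and IFIT2 was the gene in which it was not higher. The leptin overexpression libraries differed less, with a median ratio of replicate 2 to replicate 1 of 0.877; replicate 2 was the lower of them in 20 of the 32 genes, against 48.8% of all genes. Against WT replicate 2, leptin overexpression replicate 1 was lower in 32 of 32 genes and replicate 2 in 30, and 50.5% and 51.3% of all genes were lower in these pairs of libraries. Against WT replicate 1, the counts were 26 and 24 of 32, where all genes gave 49.8% and 49.7%. Summed over the 34 genes, the level was 456 and 430.3 CPM in leptin overexpression and 525 and 1046 CPM in WT. With WT replicate 2 left out, the median log2 fold change was -0.39 and 23 of 31 genes had lower values, against 50.6% of all genes in that fit, and edgeR called 0 of the 31 lower, against 2.86% of all genes. Without WT replicate 1 it was -1.30, and edgeR's adjusted p was under 0.05 for 5 of 33 (RSAD2, OAS2, MX2, MX1 and ISG15), against 0.667% of all genes; such a fit holds none of the spread within WT.

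**Figure D2:**
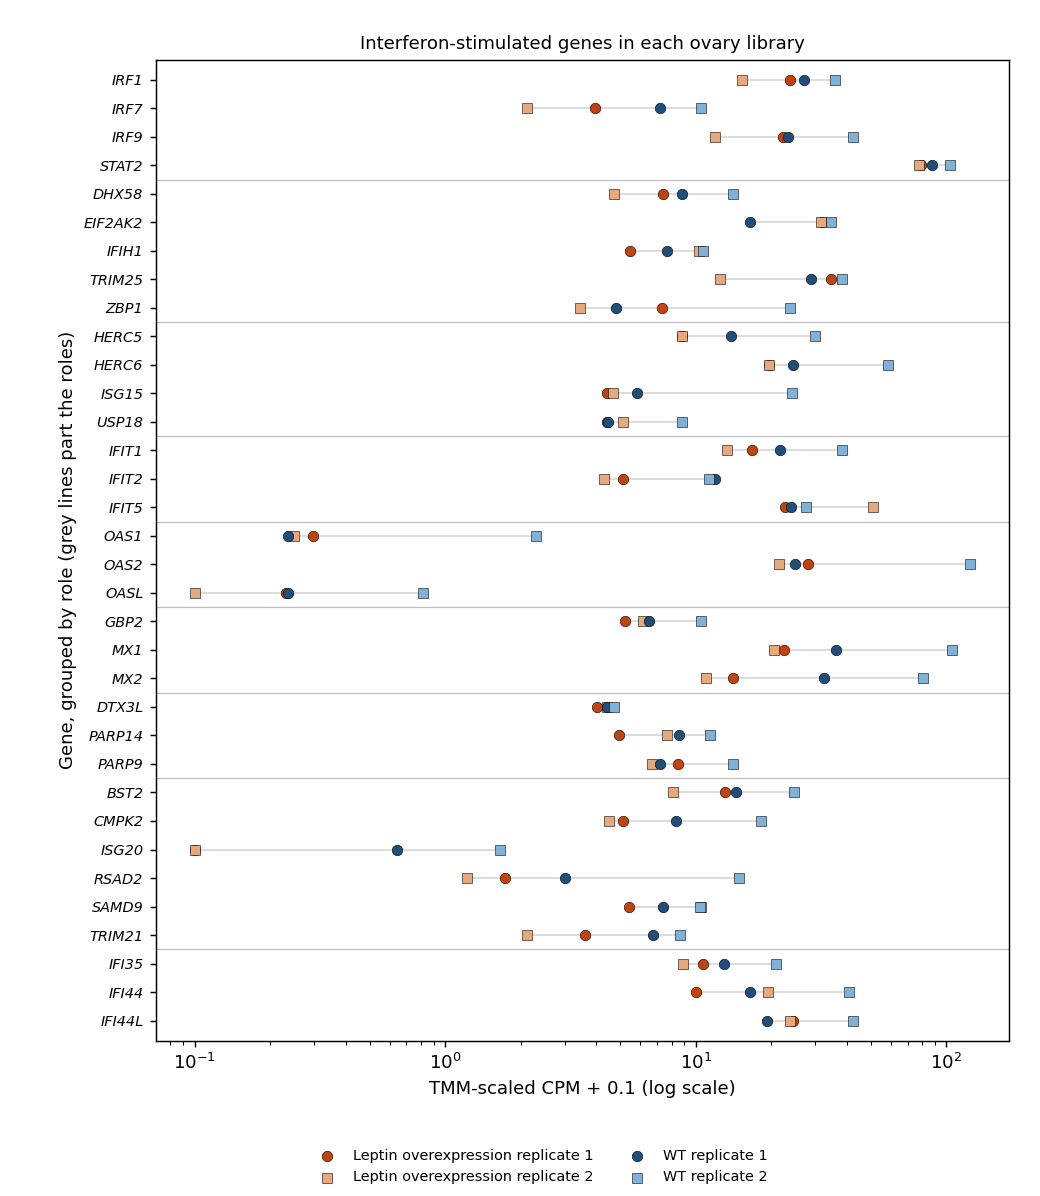
TMM-scaled CPM + 0.1 (log axis) of the 34 matched genes in each of the 4 libraries, grouped by role. WT replicate 2 is the highest library for most genes; MX1, for example, is at 105 CPM there, and at 22.4, 20.5 and 36.2 CPM in the 2 leptin overexpression libraries and WT replicate 1.

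The transcription factors come first in the pathway. All 4 had lower values in leptin overexpression and groups that did not overlap, where 50.7% of all genes tested had lower values and 22.9% did not overlap on the low side. STAT2 (ENSSSCG00000000396), the subunit through which type I interferon signals, was at 78.9 and 77.9 CPM in leptin overexpression, against 87.8 and 103 CPM in WT. Both WT libraries were above both leptin overexpression libraries, by little, and the log2 fold change was -0.29 (SE 0.35), with adjusted p = 0.788 by edgeR. IRF9, the DNA-binding subunit of ISGF3, was at 22.3 and 11.8 CPM in leptin overexpression, against 23.3 and 42.4 CPM in WT. Leptin overexpression replicate 1 and WT replicate 1 were nearly level, and the other library of each group stood further out. IRF7 (ENSSSCG00000012853), which drives the later wave of interferon production, had 3.85 and 2.02 CPM in leptin overexpression, against 7.08 and 10.4 CPM in WT. It showed the widest gap of the 4, with a log2 fold change of -1.57 (SE 0.58) and edgeR adjusted p = 0.468, and values of -1.83 without WT replicate 1 and -1.28 without WT replicate 2. IRF1, a factor that responds to type II interferon and to several cytokines, was at 23.6 and 15.2 CPM in leptin overexpression, against 26.9 and 36 CPM in WT, a log2 fold change of -0.69 (SE 0.41).

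Of 5 tested sensors of foreign nucleic acid, 4 had lower values, and the groups parted for DHX58 alone, a share near the 22.9% of all genes. DHX58 (LGP2), a helicase that modulates the RNA sensors, was at 7.31 and 4.63 CPM in leptin overexpression, against 8.71 and 14 CPM in WT. ZBP1, a sensor of left-handed nucleic acid that can start necroptosis, was at 7.25 and 3.36 CPM in leptin overexpression, against 4.72 and 23.6 CPM in WT. WT replicate 2 stood far above the other libraries, and the log2 fold change of -1.41 (SE 0.77) was 0.15 without that library. IFIH1 (MDA5), a sensor of long double-stranded RNA, was at 5.35 and 10.2 CPM in leptin overexpression, against 7.58 and 10.6 CPM in WT, and the groups overlapped. TRIM25, a ubiquitin ligase that helps RIG-I to signal, was at 34.4 and 12.4 CPM in leptin overexpression, against 28.8 and 38.1 CPM in WT. Its leptin overexpression libraries lay on both sides of WT replicate 1, and the log2 fold change was 0.06 without leptin overexpression replicate 2. EIF2AK2 (PKR), a kinase that stops translation on sensing double-stranded RNA, was at 31.9 and 31.6 CPM in leptin overexpression, against 16.4 and 34.5 CPM in WT. Here WT replicate 1 was the low library, the log2 fold change was 0.32 (SE 0.44), and it was -0.14 without that library. The row that the reference table names RIGI (ENSSSCG00000030408) was at 11 and 11.7 CPM in leptin overexpression, against 9.16 and 26.9 CPM in WT, again with WT replicate 1 lowest and WT replicate 2 highest.

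ISG15 is a ubiquitin-like protein that is attached to other proteins in interferon-treated cells. ISG15 (ENSSSCG00000040575) itself was at 4.31 and 4.56 CPM in leptin overexpression, against 5.72 and 24.2 CPM in WT, or 6.29 and 5.81 FPKM in leptin overexpression, against 12.1 and 38 FPKM in WT. In CPM the 2 leptin overexpression libraries and WT replicate 1 lay close together, while in FPKM WT replicate 1 was well above both leptin overexpression libraries. On both scales ISG15 was far higher in WT replicate 2 than in the other libraries. Its log2 fold change was -1.75 (SE 0.67) with edgeR adjusted p = 0.493; without WT replicate 2 it was -0.39. HERC5, in humans the ligase that attaches ISG15, was at 8.68 and 8.74 CPM in leptin overexpression, against 13.7 and 29.7 CPM in WT. The leptin overexpression libraries were nearly equal and both lay under WT replicate 1, with a log2 fold change of -1.31 (SE 0.48). HERC6, its close relative, which is the main such ligase in mice, was at 19.5 and 19.6 CPM in leptin overexpression, against 24.3 and 58.4 CPM in WT (log2 fold change -1.08). With WT replicate 2 left out, HERC5 was at -0.68 and HERC6 at -0.34 on that scale. USP18, which removes ISG15 and damps signalling at the type I receptor, was at 4.31 and 5 CPM in leptin overexpression, against 4.36 and 8.71 CPM in WT. WT replicate 1 lay between the leptin overexpression libraries, so the groups overlapped.

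The IFIT proteins bind viral RNA that lacks the host's cap marks. IFIT1 was at 16.7 and 13.2 CPM in leptin overexpression, against 21.5 and 38.1 CPM in WT and did not overlap. IFIT2 (ENSSSCG00000010451) was at 5.03 and 4.18 CPM in leptin overexpression, against 11.8 and 11.2 CPM in WT. It is the gene whose WT libraries agreed most closely among those with a low p, and its log2 fold change of -1.32 (SE 0.47) moved little when any library was left out, to between -1.44 and -1.18; edgeR adjusted p was 0.433. IFIT5 had higher values, at 22.5 and 50.9 CPM in leptin overexpression, against 24 and 27.4 CPM in WT. Leptin overexpression replicate 2 was high and the other 3 libraries lay together, and the log2 fold change of 0.52 (SE 0.45) was -0.17 without that library. Reads of such related genes may be divided between them, so single IFIT, OAS, MX and GBP values are uncertain to that extent.

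The oligoadenylate synthetases make the messenger that activates RNase L. OAS2 (ENSSSCG00000009881) was at 27.9 and 21.4 CPM in leptin overexpression, against 24.9 and 124 CPM in WT. WT replicate 1 lay between the leptin overexpression libraries and WT replicate 2 stood far above, and the log2 fold change of -1.59 (SE 0.69) became -0.03 without WT replicate 2. On the FPKM scale OAS2 was at 6.75 and 4.37 FPKM in leptin overexpression, against 8.41 and 30.9 FPKM in WT, and there the groups did not overlap. OAS1 and OASL did not pass the filter. OAS1 had 3 and 2 counts in leptin overexpression and 3 and 37 in WT, and OASL had 2 and 0 counts in leptin overexpression and 3 and 12 in WT. In both, WT replicate 2 was the library with more than a few reads.

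MX1 and MX2 are dynamin-like GTPases that block viral replication, and among the 32 MX2 had the lowest and MX1 the third lowest unadjusted p. MX2 (ENSSSCG00000012076) was at 14 and 10.8 CPM in leptin overexpression, against 32.4 and 80.6 CPM in WT, or 2.50 and 1.68 FPKM in leptin overexpression, against 8.44 and 15.8 FPKM in WT. Both WT libraries were above both leptin overexpression libraries. The log2 fold change was -2.19 (SE 0.50) with edgeR adjusted p = 0.222, and it lay between -2.72 and -1.41 with any 1 library left out. DESeq2 gave adjusted p = 0.00462, and limma-trend on log2(FPKM + 1) 0.00217. MX1 (ENSSSCG00000012077) was at 22.4 and 20.5 CPM in leptin overexpression, against 36.2 and 105 CPM in WT, with the same order of libraries and a log2 fold change of -1.72 (SE 0.51) and edgeR adjusted p = 0.334. For MX1 this value was -2.32 with WT replicate 1 left out and -0.78 with WT replicate 2 left out. Per transcript length MX1 came in place 7 of the 32 in leptin overexpression and in place 1 in WT, with 8.02 and 6.40 FPKM in leptin overexpression, against 19.4 and 42.6 FPKM in WT. GBP2, a guanylate-binding protein that coats intracellular pathogens, was at 5.09 and 6.05 CPM in leptin overexpression, against 6.40 and 10.4 CPM in WT, with libraries nearer to each other. The row named GBP1 by the reference table was at 14 and 16.4 CPM in leptin overexpression, against 19.1 and 27.3 CPM in WT.

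RSAD2 (viperin) turns CTP into a chain terminator of viral RNA, and CMPK2 supplies nucleotides for it. RSAD2 (ENSSSCG00000008648) was at 1.63 and 1.12 CPM in leptin overexpression, against 2.90 and 14.7 CPM in WT. It had the largest fitted fold of the genes with reads in every library, -2.67 (SE 0.83) on the log2 scale (edgeR adjusted p = 0.360), and -1.09 without WT replicate 2. CMPK2 was at 5.03 and 4.41 CPM in leptin overexpression, against 8.26 and 18.1 CPM in WT, in the same order, with a log2 fold change of -1.48 (SE 0.53), or -0.83 with WT replicate 2 left out. ISG20 (ENSSSCG00000024867), an exonuclease, had 0 counts in both leptin overexpression libraries and 12 and 26 in WT. It passed the filter through its WT counts alone, so it could only come out lower, yet it is part of the counts above. The filter of at least 1 CPM in 2 libraries left ISG20 out. Under that filter 29 of 31 genes had lower values, and the groups of 19 did not overlap on the low side. ISG20 was also untested without WT replicate 2. Against a floor of 3 counts over the leptin overexpression group ISG20 was at least 9.37-fold lower, and edgeR adjusted p was 0.300. With ISG20 at that bound, -3.23 on the log2 scale, the median log2 fold change of the 32 was also -0.93. It could not move, because ISG20 was still the lowest of the 32. TRIM21, an antibody receptor inside cells, was at 3.53 and 2.02 CPM in leptin overexpression, against 6.62 and 8.53 CPM in WT with a log2 fold change of -1.45 (SE 0.58), and its WT libraries were close to each other. BST2 (tetherin), which holds virions at the cell surface, was at 13 and 7.99 CPM in leptin overexpression, against 14.4 and 24.6 CPM in WT. SAMD9, a restriction factor for poxviruses, was at 5.29 and 10.4 CPM in leptin overexpression, against 7.30 and 10.3 CPM in WT, and the groups overlapped.

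PARP9 and DTX3L form a complex that modifies histones and ubiquitin, and PARP14 is a related ADP-ribosyltransferase. All 3 had lower values, where 50.7% of all genes tested did. The groups parted for PARP14 alone, where 22.9% of all genes tested did not overlap on the low side. DTX3L was at 3.92 and 4.33 CPM in leptin overexpression, against 4.31 and 4.59 CPM in WT, a log2 fold change of -0.11 (SE 0.57). PARP9 was at 8.36 and 6.57 CPM in leptin overexpression, against 7.12 and 14 CPM in WT, and the groups overlapped. PARP14 was at 4.83 and 7.54 CPM in leptin overexpression, against 8.44 and 11.3 CPM in WT, without overlap, with a log2 fold change of -0.67 (SE 0.49). The remaining genes have less settled roles. IFI44 was at 9.92 and 19.3 CPM in leptin overexpression, against 16.3 and 40.9 CPM in WT, and its neighbour IFI44L at 24.3 and 23.6 CPM in leptin overexpression, against 19.1 and 42.1 CPM in WT; in both the groups overlapped. IFI35 was at 10.6 and 8.81 CPM in leptin overexpression, against 12.8 and 20.9 CPM in WT, without overlap. The row named IFI6 (ENSSSCG00000034570), a mitochondrial and endoplasmic reticulum protein, was at 18.7 and 22.6 CPM in leptin overexpression, against 23.3 and 116 CPM in WT, again with WT replicate 2 far above the other libraries. Its log2 fold change was -0.20 without WT replicate 2 and -1.75 (SE 0.69) with all libraries.

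**Figure D3:**
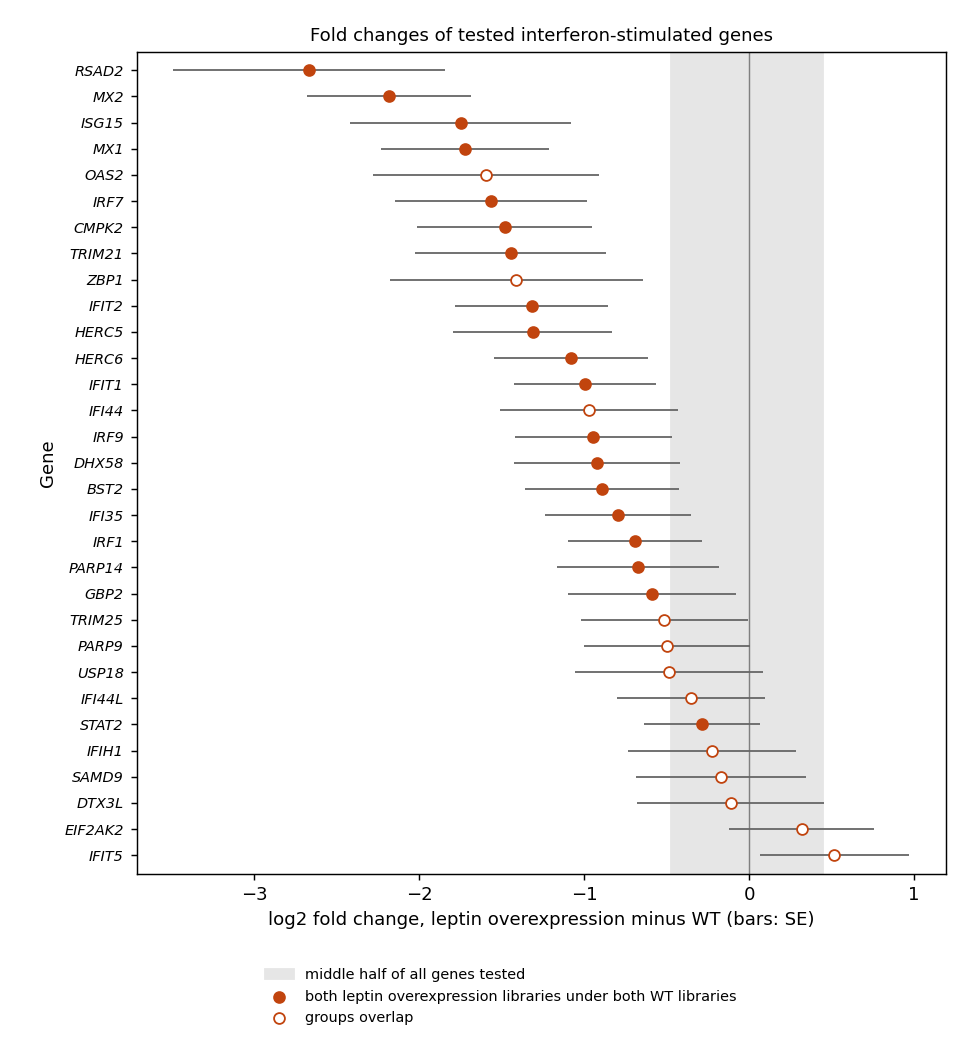
Log2 fold change (leptin overexpression minus WT, bars show SE) of 31 tested genes; ISG20, at 0 counts in leptin overexpression, is left out. Filled points mark genes whose groups do not overlap in CPM, from RSAD2 at -2.67 to STAT2 at -0.29; IFIT5 at 0.52 and EIF2AK2 at 0.32 are the points above 0.

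Scaling changed how far the groups parted. In the authors' FPKM, which carry no TMM factor, 29 of the 32 genes had both leptin overexpression libraries under both WT libraries, as did 39.7% of all genes. By limma-trend on log2(FPKM + 1), 5 genes were called lower (RSAD2, MX2, MX1, ISG20 and ISG15), against 2.68% of all genes, and with a pseudocount of 0.1 in place of 1 it also called 5, against 2.86%. The median of all genes was -0.30 on that scale, so the members' median of -1.08 lay -0.78 from it. The most abundant of the 32 per transcript length were STAT2, IFI44L and IRF9 in leptin overexpression and MX1, ISG15 and STAT2 in WT. STAT2 was at 16.5 and 13.9 FPKM in leptin overexpression, against 27.1 and 22.9 FPKM in WT, and IFI44L at 13.1 and 10.9 FPKM in leptin overexpression, against 15 and 24.2 FPKM in WT. No test was made of these orders.

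Several of these genes lie side by side in the pig genome (RefSeq, Sscrofa11.1, counting protein-coding genes), and their values are set beside each other here with no test. MX2 and MX1 on chromosome 13 had log2 fold changes of -2.19 and -1.72, RSAD2 and CMPK2 on chromosome 3 -2.67 and -1.48, and HERC5 and HERC6 on chromosome 8 -1.31 and -1.08. On chromosome 13, DTX3L and PARP9 had -0.11 and -0.50. IFI44 and IFI44L on chromosome 6 had -0.97 and -0.35.

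**Figure D4:**
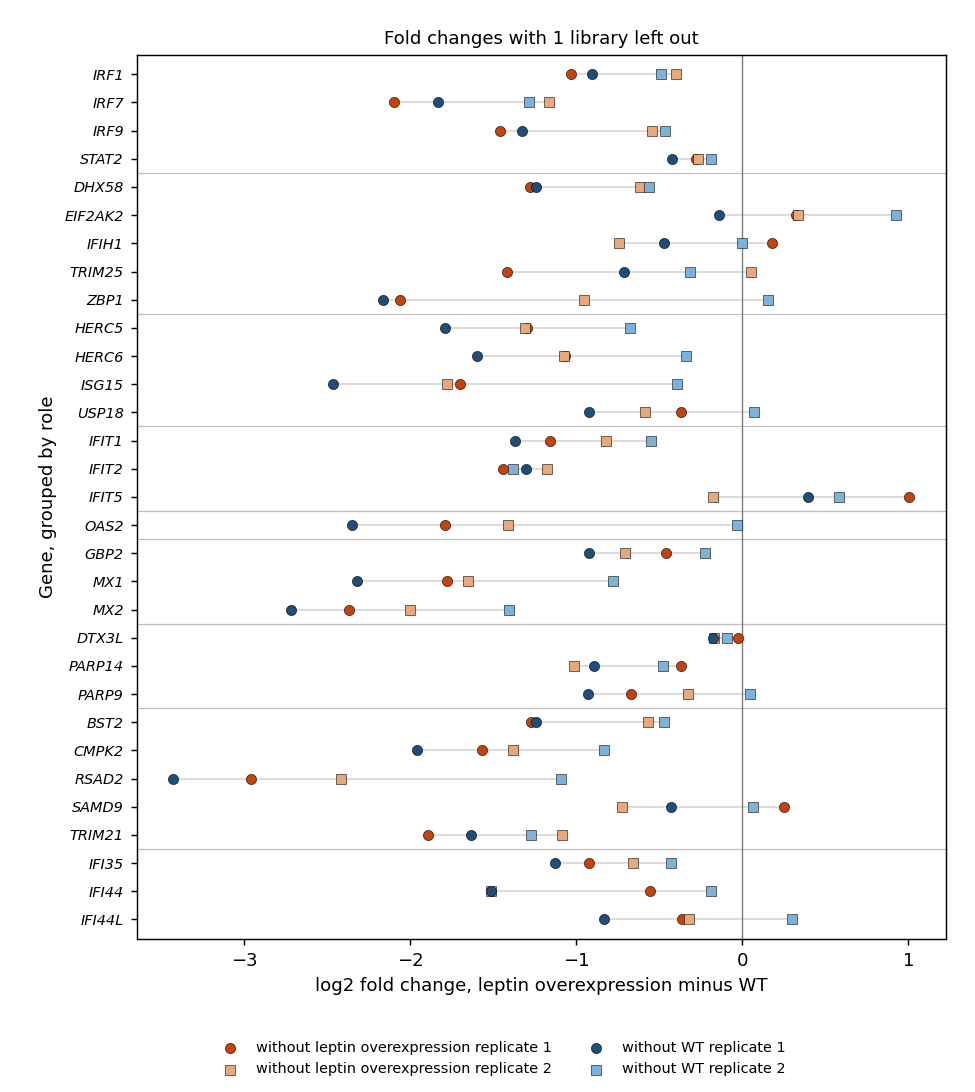
Log2 fold change of each tested gene with 1 library left out (4 points a gene, grouped by role; ISG20 left out). The points without WT replicate 2 lie furthest to the right for most genes, as for OAS2 at -0.03, while those of MX2 stay between -2.72 and -1.41.

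Upstream of these genes, 5 of 8 listed interferons had a row, and those were hardly detected. IFNL1, IFNL3 and IFNW1 matched no row, and other interferon genes were not looked for. IFNB1, IFNG and IFNK had 0 counts in every library, which allows up to 3 counts, or 0.196 and 0.224 CPM in leptin overexpression and 0.136 and 0.179 CPM in WT. IFNA1 had an expected count of 0.44 in leptin overexpression replicate 1 and 0 in the other libraries. IFNE had 5 and 5 counts in leptin overexpression and 6 and 1 in WT. Of 10 receptor and JAK-STAT genes, 0 passed the edgeR test in either direction; 4 had lower and 6 higher values, with a median log2 fold change of 0.09. JAK1, a kinase that the interferon receptors share, was at 159.6 and 162 CPM in leptin overexpression, against 188 and 161 CPM in WT.

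Among 14 tested sensors and adaptors that act before interferon is made, 0 passed in either direction. In 11 the values were lower, where 50.7% of all genes tested had lower values, and the median was -0.29. MAVS, the mitochondrial adaptor of the RNA sensors, was at 69.3 and 49.6 CPM in leptin overexpression, against 68.4 and 82.2 CPM in WT. TBK1, the kinase that activates IRF3, was at 37.9 and 105 CPM in leptin overexpression, against 37.4 and 23.3 CPM in WT, where leptin overexpression replicate 2 was the high library. Of 12 negative regulators, 0 passed, 6 had lower values and the median was -0.03. SOCS3, an inhibitor that cytokines and leptin induce, was at 479.5 and 131 CPM in leptin overexpression, against 55.7 and 298 CPM in WT. It spread widely within both groups. OTUD5 was at 99.2 and 77.4 CPM in leptin overexpression, against 98.7 and 92.4 CPM in WT.

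A further list held 45 other genes known to respond to interferon, of which 27 were tested. Again 0 passed in either direction, 21 had lower values, 10 did not overlap on the low side and 2 on the high side, and the median was -0.44. Over all genes tested, 50.7% had lower values, 22.9% did not overlap on the low side and 22.2% on the high side. The genes of lowest p were IFITM3, UBE2L6 and UBA7. IFITM3, which blocks viral entry, was at 37.9 and 31.7 CPM in leptin overexpression, against 66 and 126 CPM in WT with a log2 fold change of -1.47 (SE 0.42) and edgeR adjusted p = 0.314. UBA7 and UBE2L6 are the E1 and E2 enzymes that hand ISG15 on to the HERC ligases. UBA7 was at 4.24 and 4.63 CPM in leptin overexpression, against 9.89 and 11.2 CPM in WT, and UBE2L6 at 6.01 and 6.27 CPM in leptin overexpression, against 11.3 and 18.2 CPM in WT. In both, each leptin overexpression library was lower than either WT library. Both genes were named for a low p in these data, which favours such a gap. The groups of ISG15, HERC5 and HERC6 parted likewise, and those of USP18 overlapped. The 2 most abundant genes of this list had higher values. LAP3, an aminopeptidase, was at 200.4 and 293 CPM in leptin overexpression, against 105 and 194 CPM in WT, and SHISA5 at 168 and 158 CPM in leptin overexpression, against 137 and 151 CPM in WT.

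Most markers of leukocytes also had lower values in leptin overexpression, and their part in the result was not tested. Of 29 tested rows of 33 listed markers, 25 had lower values, where 50.7% of all genes tested did, and 0 passed. The summed level of the markers was 509 and 440.1 CPM in leptin overexpression and 540.3 and 821 CPM in WT. T and NK cell markers summed to 24.4 and 21.7 CPM in leptin overexpression, and to 34.3 and 63.4 in WT, and 9 of 10 tested rows were lower. The higher one was a row of GZMA, at 1.31 and 2.02 CPM in leptin overexpression, against 0.544 and 0.537 CPM in WT. CD4 was at 9.40 and 7.54 CPM in leptin overexpression, against 4.08 and 27.5 CPM in WT, and NKG7, of cytotoxic granules, at 4.57 and 6.05 CPM in leptin overexpression, against 14.9 and 8.18 CPM in WT. B and plasma cell markers summed to 18.3 and 25.7 CPM in leptin overexpression, and to 34.5 and 64.2 in WT. JCHAIN was at 4.24 and 6.72 CPM in leptin overexpression, against 19 and 39.3 CPM in WT. CD79A was at 12.6 and 17.9 CPM in leptin overexpression, against 12.2 and 14 CPM in WT. Macrophage and dendritic cell markers summed to 452 and 374 CPM in leptin overexpression, and to 439 and 642 in WT, with 8 of 10 tested lower. MRC1 was higher in both leptin overexpression libraries, at 42.3 and 42.2 CPM, against 18.4 and 26.1 CPM in WT. CD14, the other with a higher value, was at 23.9 and 18.1 CPM in leptin overexpression, against 12.1 and 19.9 CPM in WT. C1QC, a complement part made by tissue macrophages, was at 124 and 79.8 CPM in leptin overexpression, against 93.2 and 198 CPM in WT. C1QB, another chain of the same protein, was at 101 and 83.1 CPM in leptin overexpression, against 98.4 and 151 CPM in WT. Neutrophil markers summed to 7.44 and 5.38 CPM in leptin overexpression and 15.8 and 39.7 CPM in WT; S100A12 was at 5.88 and 4.78 CPM in leptin overexpression, against 1.36 and 34.5 CPM in WT, and CSF3R at 0.522 and 0.0747 CPM in leptin overexpression, against 14.4 and 1.01 CPM in WT. PTPRC, carried by all leukocytes, was at 7.44 and 13.7 CPM in leptin overexpression, against 16.8 and 12.4 CPM in WT, and it was higher in WT replicate 1 than in WT replicate 2. Of the defining markers, LYZ had 0 counts in every library and CD3G had reads in WT replicate 1 alone.

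Endothelial and epithelial markers also differed between libraries, and their part was likewise not tested. The 6 endothelial markers summed to 814 and 375 CPM in leptin overexpression and to 658 and 1222 CPM in WT. Of them, 6 of 6 had lower values, where 50.7% of all genes tested did, and 0 passed. PECAM1 was at 196 and 138 CPM in leptin overexpression, against 232 and 289.8 CPM in WT, and KDR at 242 and 85.8 CPM in leptin overexpression, against 128 and 315 CPM in WT. The 8 markers of oviduct and surface epithelium summed to 24.3 and 87.8 CPM in leptin overexpression and to 553 and 305 CPM in WT. Of these, 7 of 8 were lower and 0 passed, and FOXJ1 and KRT18 were at 0 in leptin overexpression replicate 1. OVGP1 was at 0.0653 and 1.20 CPM in leptin overexpression, against 316 and 183 CPM in WT, and EPCAM at 2.55 and 57.1 CPM in leptin overexpression, against 33.8 and 7.76 CPM in WT. In these epithelial genes WT replicate 1 was the highest library by sum, where for interferon-stimulated genes it was WT replicate 2. The 10 ovarian steroidogenic and granulosa markers, with 7 of 10 higher and 0 passing, had STAR and CYP11A1 as the most abundant, CYP11A1 at 9244 and 7631 CPM in leptin overexpression, against 3822 and 12182 CPM in WT.

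**Figure D5:**
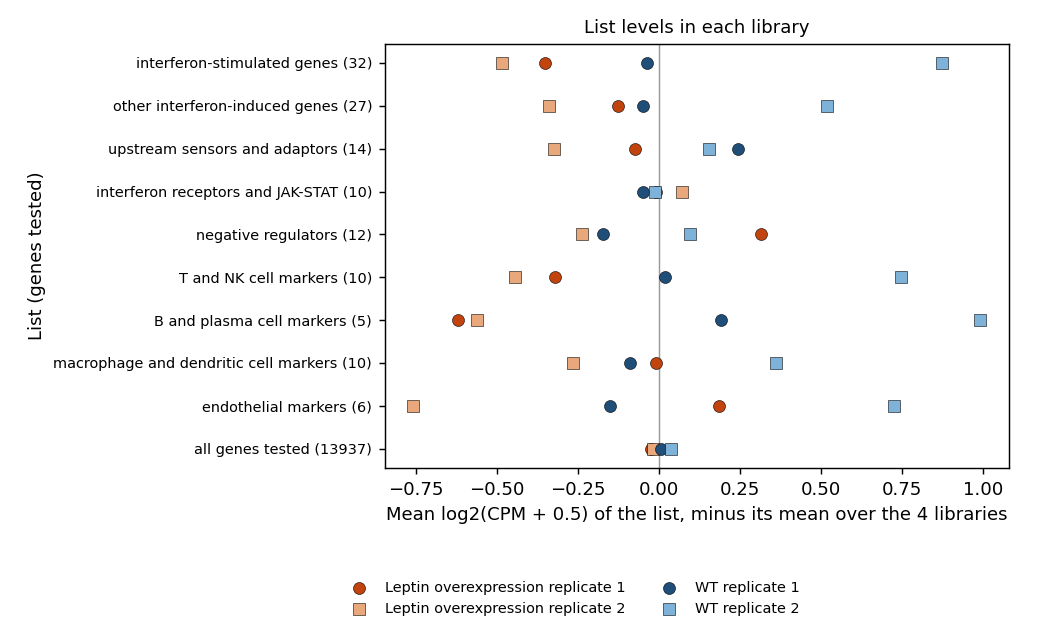
Mean log2(CPM + 0.5) of each gene list in each library, minus the mean of that list over the 4 libraries; numbers of genes tested stand in brackets. Interferon-stimulated genes were at -0.35 and -0.48 in leptin overexpression and -0.04 and 0.87 in WT, the T and NK cell markers at -0.32 and -0.45 and at 0.02 and 0.75, and the receptor and JAK-STAT list within 0.1 of 0 in every library.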

How the data were processed

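RNA of 4 ovary samples, enriched for poly(A), was read on an Illumina Novaseq6000 machine according to the labels. The deposited table holds 2 values per gene and library. Its expected counts are estimated counts, need not be whole and carry no depth scaling, as the authors' file headers show. Its FPKM values were scaled to transcript length and library size by the authors, per the file headers. From the submitters' processing notes come the names RSEM, HISAT2, DESeq2, edgeR 3.32.0, StringTie 1.3.1, Bowtie2 2.2.8 and fastp 0.18.0, without roles or order. The genome build and the use of strand are not given in the sources used here. No coordinates are printed, and antisense or overlapping genes cannot be told apart. Control columns 1 and 2 were taken as the WT samples with these numbers.

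Expected counts were rounded; 5 of the 34 matched genes (STAT2, IRF9, GBP2, PARP9 and BST2) had counts that were not whole. After edgeR's filterByExpr and TMM scaling, groups were compared over the whole table by the quasi-likelihood test of edgeR 4.0.16 (limma 3.58.1, R 4.3.3) with robust estimation, no covariate beside genotype, and 2 residual degrees of freedom. The Benjamini-Hochberg adjustment ran over all 13937 genes tested, and 0.05 was the threshold. Fold changes (log2) are leptin overexpression over WT, and SE is the size of the log2 fold change over the root of its F statistic. Floors of 3 counts cover counting error only. The code was tested on simulated data.

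The members, gene lists and tests were chosen with earlier results of these data known. All members were named. Of the other lists, members past the threshold or otherwise the 2 with the highest mean CPM were named, and for other interferon-induced genes also the 3 with the smallest p. The interferons, CYP19A1, CYP17A1, MRC1, CD14, GZMA and markers at 0 were named after their values were seen. One gene of the receptor and JAK-STAT list is not reported here by itself. GZMA matched 2 rows, both counted among the T and NK cell markers. Other settings tried were RLE factors, upper-quartile factors, fits without a filter or with at least 1 CPM in 2 libraries, DESeq2 1.42.0, voom and trend fits in limma (the trend fit on log2 FPKM with pseudocounts of 1 and 0.1), a block for replicate number, and fits that each omit 1 library. A group left with a single library is assumed to vary like the other group.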

Additional observations from a re-analysis of the deposited data

How the results depend on the processing

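The 30 lower values of the 32 tested genes became 29 to 32 under every other scaling, filter and tool tried, with 31 to 34 genes tested, and 23 to 32 with 1 library left out. Their median log2 fold change was -0.93, lay between -1.30 and -0.89 under those scalings, filters and tools, and between -1.30 and -0.39 with 1 library left out, the last without WT replicate 2. Genes whose groups did not overlap on the low side numbered 20, and 19 to 31 with 1 library left out. Leaving out a library cannot make parted groups overlap, so that range cannot show whether the 20 depend on 1 library. The share over all genes was not taken for it. Upper-quartile factors moved the median of all genes to -0.11, and FPKM moved it to -0.30 with a pseudocount of 1 and -0.40 with 0.1. Interferon-stimulated genes called lower numbered 2 with no filter (MX2 and MX1), 1 by DESeq2, 5 by limma-trend with either pseudocount, and 0 to 5 with 1 library left out. Over all genes, 4 were called higher and 0 lower. Those counts were 7 and 4 with upper-quartile factors, 84 and 168 with no filter, 104 and 215 by DESeq2, 90 and 374 by limma-trend on log2(FPKM + 1), 89 and 398 on log2(FPKM + 0.1), and 1 and 0 by limma-voom. With 1 library left out they ran from 0 to 258 higher and 0 to 423 lower. With the replicate number as a block they were 11 and 12, with 0 interferon-stimulated genes called lower against 0.0861% of all genes. The deviations of same-numbered libraries had a correlation of -0.0988 across genes, so the numbers were not taken as pairs. EIF2AK2 changed sign to -0.0096 and -0.0064 in FPKM with pseudocounts of 1 and 0.1. With 1 library left out, values crossed 0 for EIF2AK2 (-0.14 to 0.92), IFI44L (-0.84 to 0.30), IFIH1 (-0.74 to 0.18), IFIT5 (-0.17 to 1.00), PARP9 (-0.93 to 0.045), SAMD9 (-0.72 to 0.25), TRIM25 (-1.42 to 0.055), USP18 (-0.93 to 0.069) and ZBP1 (-2.16 to 0.15). The causes were not tested beyond the scaling and the library named. With 2 libraries a group, a fit without 1 takes its spread from the other group alone, and OAS1, OASL and ISG20 rest on few counts.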
